A study of Mus musculus with 64 samples.

Results

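The genes described here are 10 genes of the follicular helper T cell programme, namely Bcl6, Cxcr5, Il21, Sh2d1a, Pou2af1, Tox, Tox2, Ascl2, Il6ra and Slamf6. They were chosen by gene symbol, with earlier results of these data known, from the 55809 genes counted in each library. All 10 had a mean of at least 10 read pairs over the 64 libraries. They were followed in bulk RNA sequencing of sorted mouse CD4 T cells from a study that asked when regulatory T (Treg) cells need the transcription factor Foxp3.

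The first experiment removed Foxp3 protein. Foxp3-AID mice carry Foxp3 fused to an auxin-inducible degron, and the ligand 5-ph-IAA triggers loss of the fusion protein where the plant receptor TIR1(F74G) is made from ROSA26. Every mouse in it, ROSA26-WT controls included, carried Foxp3-AID and received 5-ph-IAA for 7 days. ZsGreen+ Treg cells came from the thymus (CD73-, newly made cells) and, as activated CD62L low cells, from spleen and lymph nodes of adult females heterozygous for Foxp3-AID, with 3 libraries per genotype and tissue. In both experiments the other T cells of heterozygous females use a wild-type Foxp3 allele, so these mice keep unaltered Treg cells. Infant mice, treated from the first day after birth, gave Treg cells of spleen and lymph nodes, with 4 libraries per group. The study's methods name hemizygous Foxp3-AID males for the infant work, which have no wild-type Foxp3 allele and so no unaltered Treg cells. The second experiment restored Foxp3. Foxp3-LSL is a reporter-null allele with a removable stop, so that T cells of heterozygous females using it are Treg "wannabe" cells without Foxp3 protein. In mice with Cd4-CreERT2, a tamoxifen-dependent Cre made in CD4-expressing T cells, 4-hydroxytamoxifen removes the stop (plusFoxp3), whereas Cd4-WT littermates given the same drug keep it (minusFoxp3). Resting and active cells of spleen and lymph nodes were taken before the drug (day 0) and 3, 7, 14 or 28 days after it, as 2 libraries in each group. At day 0 both genotypes were untreated and both lacked Foxp3 protein. Untreated Foxp3GFP Treg cells, which made Foxp3 throughout, gave 2 libraries per state.

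The labels leave the genotype of some libraries unsure. Each of the 12 adult degron files carries in its header the library name of a sample of the other genotype than the sample it is attached to. The header name was used here. With the recorded attachment every adult direction between TIR1 and WT below turns around. In the 8 infant libraries the title and the genotype field name opposite genotypes, so those groups carry the name of their title (titled TIR1, titled WT) and no direction of a Foxp3 effect can be read from them. Foxp3 mRNA was not called between degron genotypes and does not settle either question. The degron acts on the protein, although the study reports a slight fall of Foxp3 mRNA in resting Treg cells after it. Under the header names 7 Treg markers summed to 2318 to 2433 CPM in WT and 1950 to 2138 CPM in TIR1 libraries of active cells, and to 3133 to 3270 against 2693 to 2881 CPM in the thymus, lower in TIR1 without overlap in both tissues. In infant cells the same sum was 2189 to 2467 CPM in titled TIR1 libraries and 2605, 2767, 2686 and 1986 CPM in titled WT libraries. No library was assigned to a group from these values.

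Follicular helper T cells are the CD4 T cells that help B cells in germinal centres. The repressor BCL6 directs them, ASCL2, TOX, TOX2 and the coactivator OCA-B (Pou2af1) act with or upstream of it, and the chemokine receptor CXCR5 brings the cells into follicles. IL-6, sensed through IL-6Rα, promotes the programme, IL-21 is its main helper cytokine, and the SLAM receptor Ly108 (Slamf6) signals through the adaptor SAP (Sh2d1a) during contact with B cells. Some Treg cells take on BCL6 and CXCR5 and become follicular regulatory T cells, which restrain germinal centres and make little IL-21. On build GRCm39 the genes lie at chr16:23783802-23807602 (Bcl6), chr9:44423084-44473174 (Cxcr5), chr3:37276908-37286785 (Il21), chrX:41591330-41618207 (Sh2d1a), chr9:51125008-51151380 (Pou2af1), chr4:6686353-6991557 (Tox), chr2:163045045-163166090 (Tox2), chr7:142520566-142523001 (Ascl2), chr3:89771366-89820503 (Il6ra) and chr1:171745082-171780737 (Slamf6).

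The sequence before the start of transcription is printed for 3 genes on which the results turn or whose product directs the programme. It comes from RefSeq promoters of build GRCm38.p6, which held 12 promoters of 7 of the 10 genes. Cxcr5, Sh2d1a and Tox had no entry. Each sequence is the 250 bases before the start, 5′ to 3′ on the gene's strand. In that of Slamf6, on the plus strand at chr1:171917212-171917461, the capitals mark 8 TTTG units in a row, 32 bases that begin 192 bases before the start. FOXP3 is known to bind runs of TTTG. A run of at least 3 such units, TTTGTTTGTTTG, lay on either strand in 0.630% of the 32851 promoters of 300 bases (250 before and 50 after the start), and among the promoters of these genes in that of Slamf6.
Slamf6: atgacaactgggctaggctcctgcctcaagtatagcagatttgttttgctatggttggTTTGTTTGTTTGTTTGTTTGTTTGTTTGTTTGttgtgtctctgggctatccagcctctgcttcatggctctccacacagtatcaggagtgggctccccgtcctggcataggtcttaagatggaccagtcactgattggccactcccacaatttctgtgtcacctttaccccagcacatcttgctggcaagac
In that of Il21, on the minus strand at chr3:37232637-37232886, the capitals mark TGGAAA, the core bound by NFAT factors, 119 bases before the start and again, on the other strand, 74 bases before it. TGGAAA was in 21.4% of all promoters and also in 1 of Bcl6.
Il21: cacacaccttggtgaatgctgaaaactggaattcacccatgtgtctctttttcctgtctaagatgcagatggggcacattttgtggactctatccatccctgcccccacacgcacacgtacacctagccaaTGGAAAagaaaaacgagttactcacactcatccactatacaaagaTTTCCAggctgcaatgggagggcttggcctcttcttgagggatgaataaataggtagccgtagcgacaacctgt
For a start of Bcl6, on the minus strand at chr16:23981284-23981533, the capitals mark TTCNNNGAA, the pattern of STAT factors, at 168, 122 and 88 bases before the start. TTCNNNGAA was in 8.30% of all promoters. The first match also fits TTCCTNGAA, a pattern like that of BCL6 itself, found in 1.59%.
Bcl6: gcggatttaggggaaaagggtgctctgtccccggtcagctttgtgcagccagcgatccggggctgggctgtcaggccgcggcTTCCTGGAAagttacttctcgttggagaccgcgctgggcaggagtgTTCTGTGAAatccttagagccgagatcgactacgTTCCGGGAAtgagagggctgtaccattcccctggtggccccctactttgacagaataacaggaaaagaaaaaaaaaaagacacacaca
The forkhead pattern TGTTTAC (3.65% of all promoters) and the octamer ATGCAAAT (1.74%), both searched on both strands, were in none of the 12. The TCF pattern CTTTGT (18.7%) was in promoters of Il21 and Bcl6, and the E-box CAGGTG (20.2%) in promoters of Tox2, Il6ra and Ascl2. These matches describe letters only, and none was tested against the expression values.

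Libraries held 27753211 to 57419138 read pairs counted to genes, and levels are given as CPM, the count scaled to 1000000 of that total. Between genes they are compared only per kilobase of exon (CPM per kb). Changes are log2 fold changes with their standard error (SE) from edgeR's quasi-likelihood test, and a gene is said to have risen or fallen only where its Benjamini-Hochberg adjusted p over all genes tested was under 0.05. Foxp3 itself was at 44.3 to 81.5 CPM in minusFoxp3 libraries of either state, at 426 to 615 CPM in plusFoxp3 libraries of days 3 to 28 and at 635 to 817 CPM in Foxp3GFP Treg cells. It rose at every treated day in both states and was not called between degron genotypes. Cd3e and Cd4 were well expressed in every library, at no less than 696 and 316 CPM. Of 14 B cell markers, the summed level moved with Foxp3, mostly through Ighm, the constant region of IgM. In active cells the sum was 388 to 546 CPM in minusFoxp3, 873 to 2473 CPM in plusFoxp3 of days 3 to 28 and 3924 to 4039 CPM in Foxp3GFP libraries, and in resting cells 528 to 771, 718 to 1690 and 2199 to 2242 CPM. Among the other markers Ms4a1 and Pax5 stayed at or under 1.84 and 1.16 CPM in all 64 libraries, whereas Cd22 and Ighd, the constant region of IgD, reached higher levels in libraries with Foxp3. In active cells Cd22 was at or under 1.31 CPM in minusFoxp3 libraries, 0.0605 to 6.91 CPM in plusFoxp3 of days 3 to 28 and 14.1 and 16.7 CPM in Foxp3GFP libraries. Ighd was at or under 2.62, at 1.88 to 13.4 and at 19.9 and 21.8 CPM in the same groups. Summed markers of CD8 T and NK cells were at 11.4 to 17.5 CPM in active minusFoxp3 and 14.6 to 197 CPM in active plusFoxp3 libraries of days 3 to 28, the highest in replicate 1 of day 28. Myeloid markers summed to at most 29.7 CPM in any library. In bulk RNA, fewer cells that express a gene and less of its RNA in each cell cannot be told apart.

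The order of the genes by level differed between the groups of active cells. In active minusFoxp3 cells, over all days, Tox2 stood highest at 42.6 CPM per kb, followed by Slamf6 at 30.8, Il21 at 18.8, Sh2d1a at 16.0 and Tox at 13.8. Il6ra at 5.55, Pou2af1 at 4.79, Cxcr5 at 1.47, Bcl6 at 0.906 and Ascl2 at 0.222 CPM per kb made up the lower end. Il21 thus stood near the top and Cxcr5 near the bottom. In active Foxp3GFP Treg cells the means of Cxcr5 and Tox2 were the highest, at 56.2 and 49.9 CPM per kb, and Il21 came last at 1.06. Cxcr5 and Tox2 could not be ordered there, at 68.5 and 55.5 CPM per kb in replicate 1 and 43.9 and 44.2 in replicate 2. In resting cells Slamf6 led in minusFoxp3, plusFoxp3 and Foxp3GFP groups alike, at 44.4, 35.5 and 29.0 CPM per kb. Ascl2, a basic helix-loop-helix activator, was last in minusFoxp3 and plusFoxp3 cells. In resting Foxp3GFP cells Ascl2 and Il21, at 0.114 and 0.117 CPM per kb, could not be ordered. Sh2d1a and Il6ra, both at 12.5 CPM per kb in resting minusFoxp3 cells of days 3 to 28, could not be ordered there. Ascl2 did not pass 4.42 CPM in any library.

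**Figure D1:**
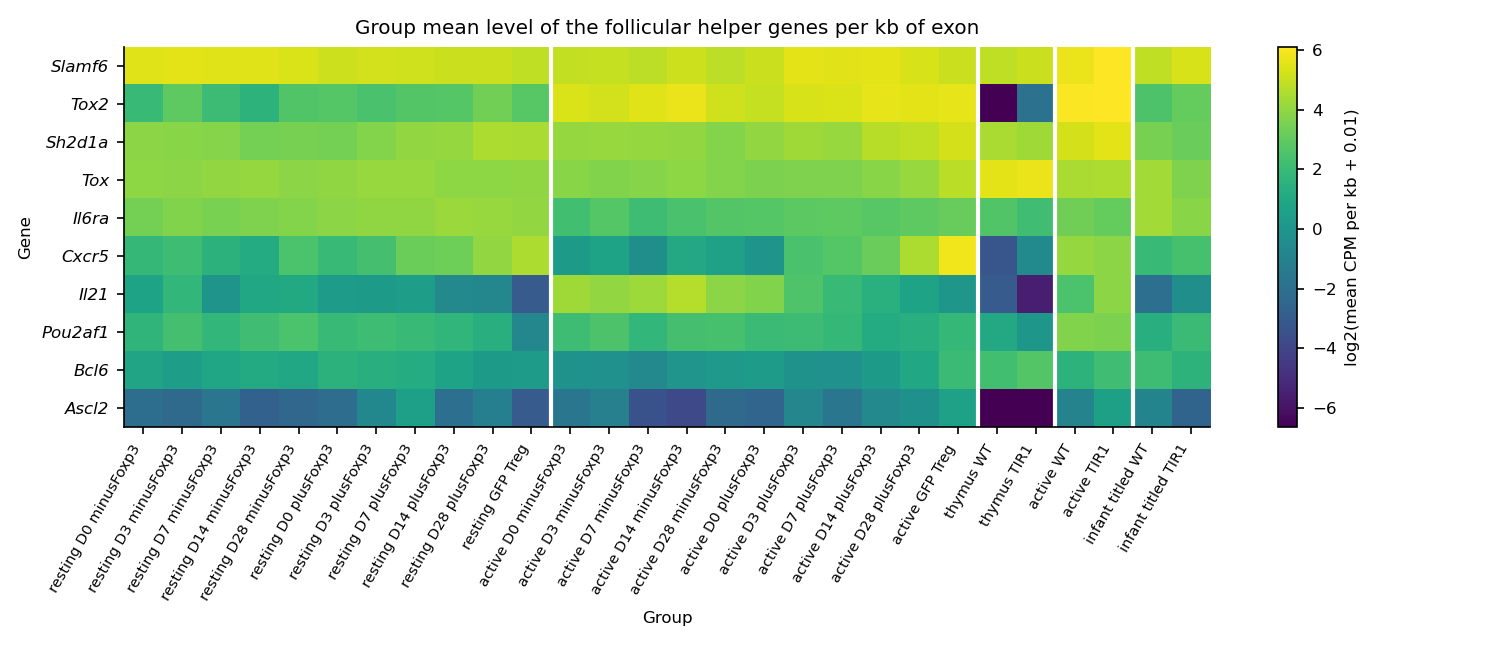
Mean level of each of the 10 genes (rows) in each of the 28 groups (columns), in CPM per kb of exon on a log colour scale. Cxcr5 runs from 1.47 CPM per kb in active minusFoxp3 cells to 56.2 in active Foxp3GFP Treg cells, whereas Il21 runs from 18.8 to 1.06 over the same groups.

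The first question was what restoring Foxp3 did in active wannabe cells. Averaged over days 3 to 28, with 8 plusFoxp3 against 8 minusFoxp3 libraries, Cxcr5, Sh2d1a and Slamf6 rose, Il21 fell and the other 6 genes were not called. The background share called in that comparison was 6.22% of the 20776 genes tested. The median log2 fold change of the 10 genes was 0.42, beside -0.00035 over all genes. The 6 markers of activated Treg cells summed to 1066 to 1604 CPM in these minusFoxp3 and 1453 to 2391 CPM in these plusFoxp3 libraries, with 3 of the 6 called higher, and their part in these results was not tested.

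Cxcr5, the follicle-homing receptor, made the largest rise of the 3. In minusFoxp3 cells it stayed low, at 5.01 and 3.17 CPM on day 0, 6.80 and 4.37 on day 3, 1.37 and 4.01 on day 7, 7.12 and 6.76 on day 14 and 4.32 and 5.97 on day 28. In plusFoxp3 cells it was at 4.02 and 2.24 CPM on day 0, 19.4 and 17.2 on day 3, 23.0 and 21.53 on day 7, 24.5 and 35.9 on day 14 and 54.1 and 97.4 on day 28. From day 3 every plusFoxp3 library lay above every minusFoxp3 library, and on day 0 the genotypes overlapped. The log2 fold change over days 3 to 28 was 2.72 ± 0.22 (SE), a 6.58-fold difference (edgeR adjusted p = 5.5e-07). By day it was 1.77 ± 0.42 on day 3 without a call, then 3.09 ± 0.45 on day 7, 2.13 ± 0.42 on day 14 and 3.89 ± 0.45 on day 28, each called (edgeR adjusted p = 0.0028, 0.026 and 0.00014). Fitted only on the 4 libraries of its day, the day 7 change was not called (3.06, edgeR adjusted p = 0.20). The day 14 call was lost without either minusFoxp3 library (2.15 and 2.10, edgeR adjusted p = 0.25 and 0.19) or either plusFoxp3 library (2.37 and 1.83, edgeR adjusted p = 0.055 and 0.23). The summed B cell markers rose alongside, while without Ighm and Blk the other 12 summed to 40.7 to 130 CPM in minusFoxp3 and 54.0 to 121 CPM in plusFoxp3 libraries of these days. Of the 14 markers 3 were called higher and 1 lower over days 3 to 28. Ms4a1 and Pax5 were at or under 1.43 and 1.16 CPM in every active library, while Cd22 and Ighd reached 6.91 and 13.4 CPM in plusFoxp3 against at most 1.31 and 1.90 CPM in minusFoxp3 libraries of these days. The part of B cell RNA in the Cxcr5 result was not tested.

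Il21, the helper cytokine, moved the other way. In minusFoxp3 cells it was at 98.7 and 103 CPM on day 0, 85.5 and 86.6 on day 3, 97.8 and 98.5 on day 7, 147 and 120 on day 14 and 72.1 and 81.1 on day 28. In plusFoxp3 cells it was at 58.7 and 77.9 CPM on day 0, 30.6 and 32.9 on day 3, 20.4 and 20.9 on day 7, 17.2 and 10.96 on day 14 and 9.53 and 8.02 on day 28. Each later time point of plusFoxp3 cells lay below the one before, without overlap, while the minusFoxp3 cells stayed at or above 72.1 CPM. The plusFoxp3 libraries of day 0, with no drug given, also lay below those of minusFoxp3 mice, by -0.55 ± 0.52 and without a call. Over days 3 to 28 Il21 fell by 2.48 ± 0.27 on the log2 scale, to a level 5.60-fold lower (edgeR adjusted p = 2.4e-05). The changes of -1.38 ± 0.53 on day 3 and -2.21 ± 0.54 on day 7 were not called, and those of -3.24 ± 0.57 on day 14 and -3.11 ± 0.57 on day 28 were (edgeR adjusted p = 0.0094 and 0.0065). The Il21 call of day 14 was lost without minusFoxp3 replicate 1 (-3.10, edgeR adjusted p = 0.067), plusFoxp3 replicate 1 (-3.61, 0.079) or plusFoxp3 replicate 2 (-2.95, 0.21), and that of day 28 without plusFoxp3 replicate 2 (-2.98, 0.10).

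**Figure D2:**
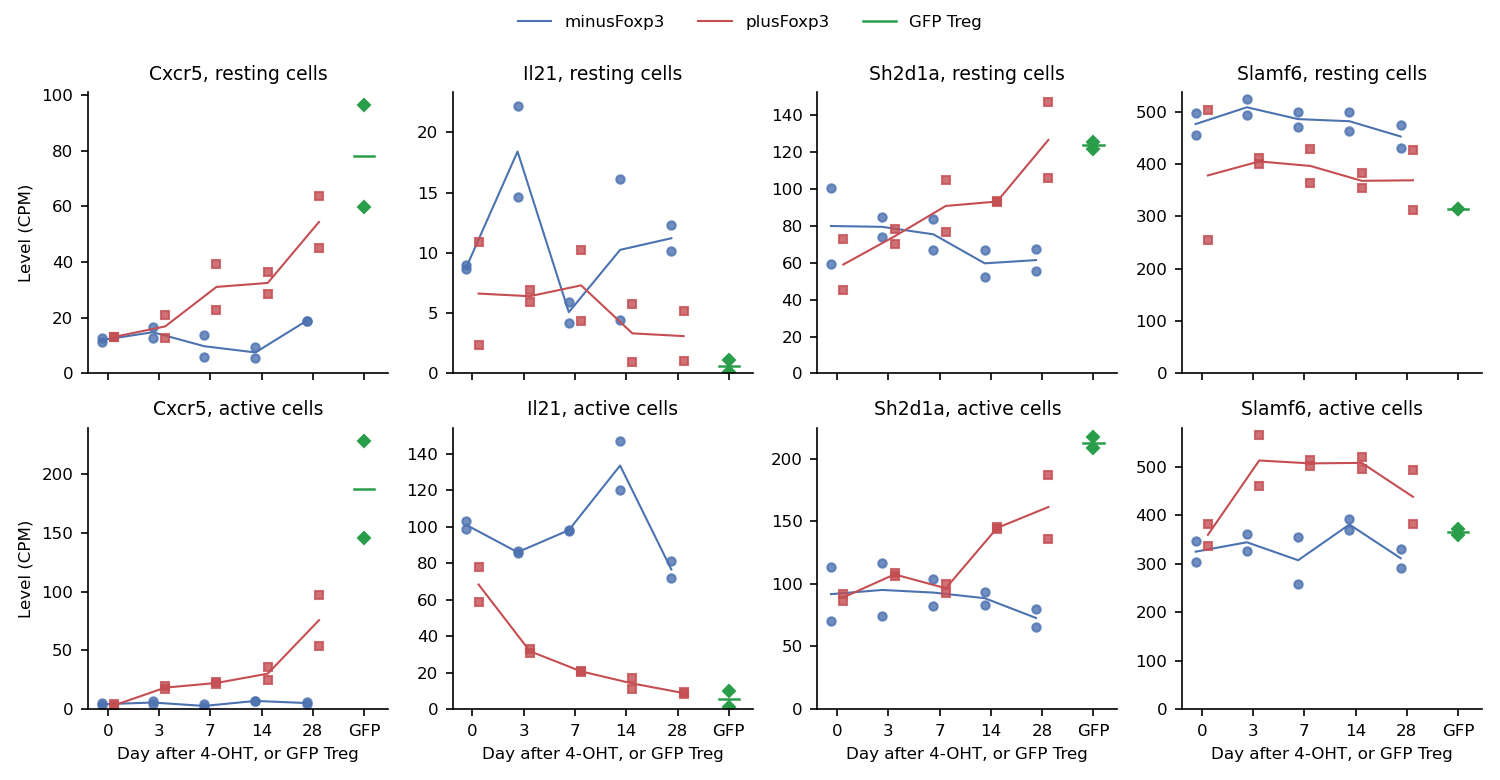
Cxcr5, Il21, Sh2d1a and Slamf6 in CPM (linear axis) by day after 4-hydroxytamoxifen, for resting and active cells, with a point for each library, lines through the means of 2 libraries and Foxp3GFP Treg cells at the right. In active plusFoxp3 cells Cxcr5 climbs from 4.02 and 2.24 CPM on day 0 to 54.1 and 97.4 on day 28, while Il21 drops from 58.7 and 77.9 to 9.53 and 8.02.

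Slamf6 encodes a self-binding receptor of the SLAM family. In minusFoxp3 cells it was at 361 and 327 CPM on day 3, 259 and 356 on day 7, 393 and 369 on day 14 and 292 and 330 on day 28. In plusFoxp3 cells it was at 565 and 461, 501 and 513, 496 and 520, and 383 and 493 CPM on the same days. The genotypes were apart on each of these days, by 0.58 ± 0.08 in the mean on the log2 scale, or 1.495-fold (edgeR adjusted p = 0.00018). By day the gene was called on day 7 alone (0.76 ± 0.16, edgeR adjusted p = 0.037), and that call was lost without minusFoxp3 replicate 1 (0.55, edgeR adjusted p = 0.35), plusFoxp3 replicate 1 (0.75, 0.31) or plusFoxp3 replicate 2 (0.80, 0.17), or when only the libraries of that day were fitted (0.74, 0.63).

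Sh2d1a encodes SAP, the adaptor that binds the tails of SLAM receptors. It was at 116 and 74.0 CPM on day 3, 104 and 82.0 on day 7, 93.8 and 83.3 on day 14 and 79.7 and 65.8 on day 28 in minusFoxp3 cells. In plusFoxp3 cells the values were 109 and 107, 92.9 and 100, 144 and 145, and 136 and 187 CPM. The genotypes overlapped on days 3 and 7 and were apart on days 14 and 28. The mean log2 fold change was 0.55 ± 0.11, or 1.46-fold (edgeR adjusted p = 0.0059), and the gene was called by day only on day 28 (1.15 ± 0.23, edgeR adjusted p = 0.011). This call was lost without minusFoxp3 replicate 2 (0.99, edgeR adjusted p = 0.16) or plusFoxp3 replicate 2 (0.92, 0.14), or with only the libraries of that day (1.15, 0.066). Of its exon sequence, 1465 bases, or 26.6%, lie over exons of Tenm1 on the other strand, and counting used no strand. Tenm1 itself did not pass 2.04 CPM in any library.

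The remaining 6 genes were not called in active cells over days 3 to 28. Il6ra, the IL-6 receptor chain, was at 30.2 to 69.7 CPM in minusFoxp3 and 48.6 to 84.1 CPM in plusFoxp3 libraries, with a log2 fold change of 0.42 ± 0.14 (edgeR adjusted p = 0.093). Without minusFoxp3 replicate 2 of day 7 or plusFoxp3 replicate 1 of day 28 Il6ra was called, at 0.49 and 0.50. Bcl6, the repressor that directs the programme, was low throughout, at 3.03 to 8.18 against 5.36 to 13.8 CPM, and its change was 0.43 ± 0.17 (edgeR adjusted p = 0.19). Ascl2 was at 0.0452 to 0.894 against 0.104 to 1.71 CPM, with 1.92 ± 0.63 (edgeR adjusted p = 0.091), and was called when only these 16 libraries were fitted (1.91, 0.039). The coactivator gene Pou2af1 was at 6.81 to 15.7 against 4.09 to 11.6 CPM, with -0.60 ± 0.33. The HMG-box factors Tox, at 90.2 to 122 against 91.6 to 154 CPM, and Tox2, at 109 to 202 against 124 to 181 CPM, moved by 0.06 ± 0.10 and 0.10 ± 0.08. For both genes the libraries of the genotypes overlapped, and Tox reached higher values in plusFoxp3 libraries.

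By day, few of the 10 genes were called in active cells. On day 0 no gene of the 10 was called by edgeR or DESeq2, against a background of 0.00481%, and 1 had an unadjusted p under 0.05, Tox2, at -0.41 ± 0.16. On day 3 also none was called (background 0.274%), although Cxcr5, Il21 and Slamf6 had an unadjusted p under 0.05 and DESeq2 called 2 genes. Of all 20776 genes tested, 951 on day 0 and 1537 on day 3 had an unadjusted p under 0.05, and DESeq2 called 264 on day 3. On day 7 there were 2 (background 0.568%), on day 14 there were 2 (0.732%) and on day 28 there were 3 (1.85%). Leaving out 1 library gave 1 to 4, 0 to 1 and 1 to 3 calls on days 7, 14 and 28, and fitting only the 4 libraries of day 7 gave 0. No trend over days was tested. These comparisons have 2 libraries in each group and share 1 estimate of the spread from all 22 active libraries.

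In resting wannabe cells, over days 3 to 28, Cxcr5, Sh2d1a and Il6ra rose, none of the 10 genes fell and 7 were not called, beside a background of 4.73% of the 20520 genes tested. The median log2 fold change of the 10 genes was 0.27, against -0.02 over all genes. Cxcr5 was at 12.8 and 16.8 CPM on day 3, 13.7 and 5.87 on day 7, 5.59 and 9.49 on day 14 and 19.0 and 18.9 on day 28 in minusFoxp3 cells. In plusFoxp3 cells it was at 12.8 and 20.9, 39.2 and 22.9, 36.5 and 28.5, and 63.7 and 45.1 CPM. The genotypes overlapped on day 3 and were apart from day 7. The mean change was 1.40 ± 0.19 on the log2 scale, or 2.63-fold (edgeR adjusted p = 0.00037).

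Il6ra was at 94.9 to 119 CPM in resting minusFoxp3 and 118 to 196 CPM in plusFoxp3 libraries of days 3 to 28, and its change was 0.46 ± 0.11 (edgeR adjusted p = 0.027). Sh2d1a was at 52.5 to 84.8 against 70.2 to 147 CPM, with 0.49 ± 0.13 (edgeR adjusted p = 0.033). Both calls sat close to the threshold. The 6 markers of activated Treg cells summed to 206 to 378 CPM in resting minusFoxp3 and 332 to 831 CPM in plusFoxp3 libraries of these days, with 4 of the 6 called higher, and their part in these results was not tested. The Il6ra call was lost in 7 of 16 refits that left out 1 library, namely minusFoxp3 replicate 1 of day 3, 7, 14 or 28, plusFoxp3 replicate 1 of day 3 or plusFoxp3 replicate 2 of day 7 or 28, with changes of 0.43 to 0.48 and edgeR adjusted p up to 0.073. The Sh2d1a call was lost in 9, namely without minusFoxp3 replicate 2 of day 3, 7, 14 or 28, plusFoxp3 replicate 1 of day 3, 7, 14 or 28 or plusFoxp3 replicate 2 of day 3, with changes of 0.43 to 0.51 and edgeR adjusted p up to 0.092.

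Slamf6 in resting cells lay at 430 to 523 CPM in minusFoxp3 and 312 to 429 CPM in plusFoxp3 libraries of days 3 to 28. Every plusFoxp3 library was thus below every minusFoxp3 library, yet the change of -0.30 ± 0.11 was not called (edgeR adjusted p = 0.15). It was called when only these 16 libraries were fitted (-0.29, edgeR adjusted p = 0.023). On day 0, before any drug, 1 library of the plusFoxp3 genotype was at 254 CPM, below all of these, and the other at 502 CPM, against 497 and 456 CPM in minusFoxp3 cells. Il21 was at 4.22 to 22.2 against 0.928 to 10.2 CPM, with -1.10 ± 0.47 (edgeR adjusted p = 0.24). Ascl2 was at 0.172 to 0.718 against 0.186 to 3.75 CPM, with 1.49 ± 0.44 (edgeR adjusted p = 0.068), and was called without plusFoxp3 replicate 2 of day 7 (1.66) or of day 28 (1.68). Bcl6 at 8.50 to 20.0 against 7.43 to 19.4 CPM, Tox at 105 to 135 against 112 to 135 CPM, Tox2 at 5.44 to 29.4 against 13.1 to 49.8 CPM and Pou2af1 at 8.74 to 16.8 against 5.25 to 12.9 CPM overlapped between genotypes.

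By day, resting cells gave 1 call in all, Cxcr5 on day 14, at 2.14 ± 0.39 (edgeR adjusted p = 0.027), against a background of 0.268%. That call was lost without minusFoxp3 replicate 1 (1.84, edgeR adjusted p = 0.40), minusFoxp3 replicate 2 (2.63, 0.057) or plusFoxp3 replicate 1 (1.96, 0.22), or with only the libraries of that day (2.15, 0.13). No gene of the 10 was called on day 0 (background 0.00487%), day 3 (0.0487%), day 7 (0.0585%) or day 28 (0.945%). Cxcr5 on day 28, at 1.53 ± 0.38 (edgeR adjusted p = 0.080), and Sh2d1a on day 28, at 1.06 ± 0.25 (edgeR adjusted p = 0.066), were nearest to a call. At an unadjusted p under 0.05 there were none on day 0, Bcl6 and Tox on day 3, Cxcr5 and Ascl2 on day 7, Cxcr5, Sh2d1a, Tox2 and Il6ra on day 14 and Cxcr5, Sh2d1a and Pou2af1 on day 28. Of all 20520 genes tested, 2219, 2247, 1172, 1821 and 1826 were at that level on days 0, 3, 7, 14 and 28. DESeq2 called Cxcr5 on day 7 and Cxcr5 and Sh2d1a on day 28, where it called 147 and 463 of all genes.

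The Foxp3 effect itself differed between states for 2 genes. The difference, active minus resting, was 1.30 ± 0.30 for Cxcr5 (edgeR adjusted p = 0.018) and 0.87 ± 0.13 for Slamf6 (edgeR adjusted p = 0.00051), with a background of 1.82% called. Cxcr5 rose more in active than in resting cells, and the Slamf6 effects had opposite signs, 0.58 ± 0.08 and -0.30 ± 0.11. For Il21 the difference of -1.40 ± 0.56 was not called (edgeR adjusted p = 0.25). For Sh2d1a and Il6ra the differences were 0.04 ± 0.17 and -0.06 ± 0.18. Both states came from mice with the same alleles, treatments and days.

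**Figure D3:**
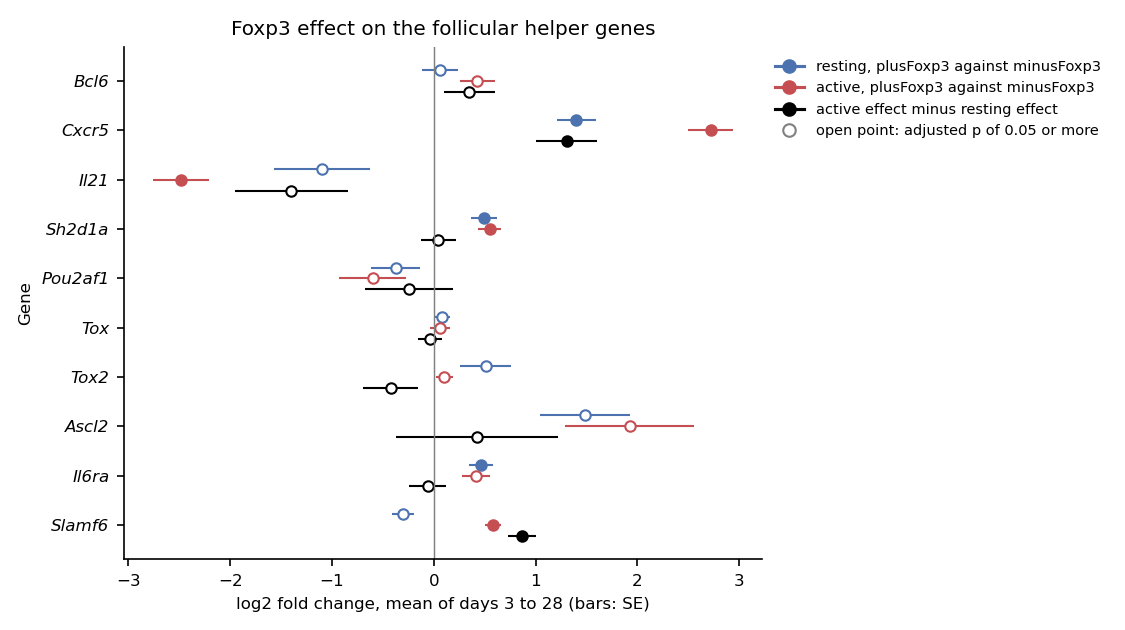
Log2 fold change (± SE) of plusFoxp3 against minusFoxp3 over days 3 to 28 in resting cells, in active cells and the difference between states, for each of the 10 genes, with filled symbols for an edgeR adjusted p under 0.05. Cxcr5 is called in all 3 comparisons, at 1.40, 2.72 and 1.30, and Slamf6 in active cells and in the difference, at 0.58 and 0.87.

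Foxp3GFP Treg cells, which had Foxp3 from the start, were compared with untreated minusFoxp3 wannabe cells. These groups come from mice with different Foxp3 alleles and were not littermates by the labels, so allele, mice and Foxp3 cannot be told apart here. In active cells Cxcr5, Bcl6, Sh2d1a, Tox and Il6ra were higher in Treg cells and Il21 was lower, against a background of 10%. Cxcr5 was at 228 and 146 CPM, against 5.01 and 3.17, a log2 difference of 5.55 ± 0.49 (edgeR adjusted p = 1.2e-06). Of the 14 B cell markers 5 were called higher and 1 lower in the same comparison, and without Ighm and Blk the other 12 summed to 135 and 168 CPM in Foxp3GFP libraries against 34.8 to 51.1 CPM in the 4 active libraries of day 0. Their part in the Cxcr5 difference was not tested. The 6 markers of activated Treg cells summed to 1958 and 2418 CPM in active Foxp3GFP libraries against 1103 to 1496 CPM in the active libraries of day 0. The part of these markers in the differences was not tested either. Il21 was at 10.1 and 1.02 CPM, against 98.7 and 103, a difference of -4.15 ± 0.60 (edgeR adjusted p = 0.00018). The 2 Foxp3GFP libraries thus differed about as much from each other in Il21 as replicate 1 did from the untreated wannabe cells.

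Bcl6 was at 36.4 and 18.3 CPM in active Foxp3GFP Treg cells against 4.67 and 7.41 in untreated wannabe cells, a log2 difference of 2.20 ± 0.36 (edgeR adjusted p = 0.00054). Bcl6 was called in no plusFoxp3 against minusFoxp3 comparison, and in active plusFoxp3 cells of day 28 it had reached 12.5 and 13.8 CPM. Tox was at 240 and 179 CPM against 84.5 and 133, with 0.97 ± 0.20 (edgeR adjusted p = 0.0036). Without Foxp3GFP replicate 1 (0.70, edgeR adjusted p = 0.089) or wannabe replicate 1 (0.65, 0.094), or with only the 4 libraries compared (0.95, 0.10), it was not called. Sh2d1a, at 208 and 217 CPM against 113 and 70.4, differed by 1.24 ± 0.23 (edgeR adjusted p = 0.0016).

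Il6ra, at 69.8 and 83.8 CPM against 36.7 and 44.9, differed by 0.94 ± 0.28 (edgeR adjusted p = 0.041) and was not called with any of the 4 libraries left out (0.76 to 1.06, edgeR adjusted p up to 0.31). Pou2af1 was not called at -0.27 ± 0.65, with 16.9 and 1.497 CPM in the 2 Foxp3GFP libraries. Replicate 1 was the higher of the 2 for Pou2af1, Il21, Ascl2, Bcl6, Cxcr5, Tox and Tox2. Without it the Pou2af1 difference was -2.94 and was called.

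In resting cells 2 genes were called between Foxp3GFP Treg and untreated minusFoxp3 cells, against a background of 2.91%. The 6 markers of activated Treg cells summed to 864 and 906 CPM in resting Foxp3GFP libraries against 144 to 324 CPM in resting libraries of day 0. The 14 B cell markers summed to 2199 and 2242 against 601 to 771 CPM, and without Ighm and Blk to 75.7 and 122 against 39.7 to 241 CPM. The part of these markers in the differences was not tested. Cxcr5 was at 96.4 and 59.9 CPM against 11.4 and 12.6, a difference of 2.72 ± 0.40 (edgeR adjusted p = 0.00087). Pou2af1 was at 2.36 and 0.678 CPM against 6.43 and 9.97, a difference of -2.41 ± 0.52 (edgeR adjusted p = 0.016), which was not called without Foxp3GFP replicate 2 (-1.77, edgeR adjusted p = 0.15) or wannabe replicate 2 (-2.005, 0.11), or with only the 4 libraries compared (-2.41, 0.17). Il21 was at 1.13 and 0.0969 CPM against 8.96 and 8.63, and its difference of -3.80 ± 1.08 was not called (edgeR adjusted p = 0.075).

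Foxp3GFP Treg cells and plusFoxp3 cells of day 28 were not separated by a call in any of the 10 genes. The backgrounds were 0.0341% in resting and 2.01% in active cells. In active cells the libraries were nonetheless apart for Cxcr5, at 228 and 146 CPM against 54.1 and 97.4 (1.31 ± 0.41, edgeR adjusted p = 0.14), for Bcl6, at 36.4 and 18.3 against 12.5 and 13.8 CPM (1.06 ± 0.34, 0.17), and for Tox, at 240 and 179 against 111 and 154 CPM (0.67 ± 0.20, 0.11). These 3 had an unadjusted p under 0.05 and were called by DESeq2. Of the 20776 genes tested in active cells 2322 were at that level, and DESeq2 called 819. Without Foxp3GFP replicate 1, Il21 was called in active cells at -3.12. In resting cells Pou2af1 lay at 2.36 and 0.678 against 8.08 and 5.25 CPM, with -2.11 ± 0.52 (edgeR adjusted p = 0.34), and was called by DESeq2. Pou2af1 and Il21 had an unadjusted p under 0.05 there, as did 813 of the 20520 genes tested, of which DESeq2 called 58.

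Active and resting cells were then compared within each Foxp3 status. Tox2 was higher in active cells whatever the Foxp3 status. It was at 109 to 202 CPM in active against 5.44 to 29.4 CPM in resting minusFoxp3 libraries of days 0 to 28, a log2 difference of 3.17 ± 0.19 (edgeR adjusted p = 8.6e-14). In plusFoxp3 cells of days 3 to 28 the difference was 2.68 ± 0.20 (edgeR adjusted p = 4.5e-11) and in Foxp3GFP Treg cells 2.83 ± 0.41 (edgeR adjusted p = 0.00015). No active library overlapped a resting library in any of the 3 comparisons.

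In minusFoxp3 cells 7 of the 10 genes were called between states, with a background of 37.9%. Il21, at 72.1 to 147 CPM in active against 4.22 to 22.2 in resting libraries, was higher in active cells by 3.31 ± 0.38, Sh2d1a by 0.33 ± 0.11 (edgeR adjusted p = 0.018), and Cxcr5 (-1.35 ± 0.19), Il6ra (-1.14 ± 0.12), Bcl6 (-1.01 ± 0.16) and Slamf6 (-0.52 ± 0.08) were lower. Bcl6 was at 3.03 to 8.18 CPM in active and 8.50 to 20.0 in resting libraries, with no overlap. The Sh2d1a call was lost without active replicate 1 of day 0 (0.25, edgeR adjusted p = 0.069), of day 3 (0.26, 0.064) or of day 28 (0.29, 0.050) or resting replicate 2 of day 0 (0.26, 0.055), or with only the libraries compared (0.33, 0.051), and Tox was called without active replicate 2 of day 0 (-0.22).

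In plusFoxp3 cells 6 were called, with a background of 26.7%. Il21 (1.86 ± 0.41), Sh2d1a (0.41 ± 0.12), Slamf6 (0.36 ± 0.09) and Tox2 were higher in active cells, and Il6ra (-1.18 ± 0.13) and Bcl6 (-0.67 ± 0.18) were lower. Slamf6 was thus lower in active than resting cells without Foxp3 and higher with it. The Cxcr5 levels, which differed between states in minusFoxp3 cells, differed by 0.01 ± 0.21 in plusFoxp3 cells. Tox was called without active plusFoxp3 replicate 2 of day 28 (-0.27) and with only the libraries compared (-0.19).

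In Foxp3GFP Treg cells 4 were called, all higher in active cells, with a background of 3.12%. Bcl6 was at 36.4 and 18.3 CPM against 10.6 and 6.57 (1.65 ± 0.36, edgeR adjusted p = 0.0086), Tox at 240 and 179 against 133 and 111 CPM (0.76 ± 0.17, 0.011), and Pou2af1 at 16.9 and 1.497 against 2.36 and 0.678 CPM (2.57 ± 0.66, 0.027), its libraries overlapping. Tox2 was the fourth. Bcl6 thus stood higher in active than resting cells among Foxp3GFP Treg cells, and lower among minusFoxp3 and plusFoxp3 cells. Without active replicate 1 only Tox2 stayed called, with Bcl6 at 1.06 (edgeR adjusted p = 0.34), Tox at 0.52 (0.34) and Pou2af1 at -0.06, and likewise without resting replicate 2, with Bcl6 at 1.34 (0.20), Tox at 0.62 (0.21) and Pou2af1 at 1.93 (0.33). Il21 was called without active replicate 2 (3.99). With only the 4 libraries compared, Bcl6 (1.66, edgeR adjusted p = 0.10), Tox (0.76, 0.096) and Pou2af1 (2.58, 0.29) were not called, and Sh2d1a was (0.77, 0.031).

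**Figure D4:**
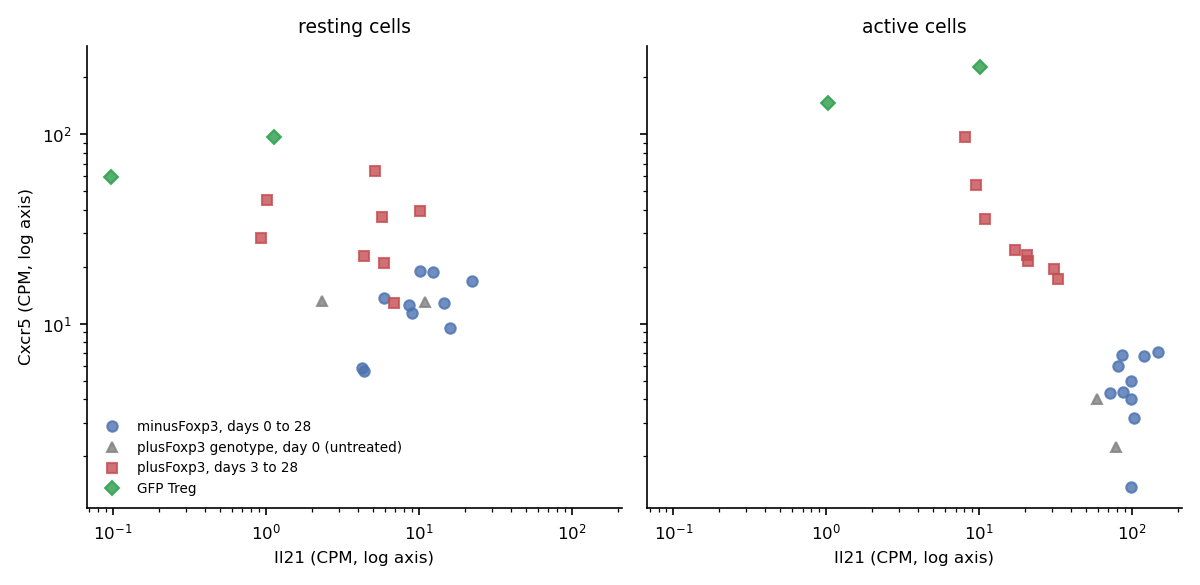
Cxcr5 against Il21, both in CPM on log axes, with a point for each of the 44 libraries of the reversible allele and Foxp3GFP Treg cells. Active minusFoxp3 libraries lie at the lower right, with Il21 from 72.1 to 147 CPM and Cxcr5 from 1.37 to 7.12 CPM. Active Foxp3GFP libraries lie at the upper left, with Cxcr5 at 228 and 146 CPM and Il21 at 10.1 and 1.02 CPM.

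In the degron experiment the first comparison was between tissues, in the libraries named ROSA26-WT. Thymic CD73- cells had less of 7 genes than active peripheral Treg cells and more of Tox, and 23.0% of all genes tested were called. Cxcr5 was at 0, 0.636 and 0.310 CPM in thymic and 38.6, 80.9 and 49.7 CPM in active cells, a log2 difference of -7.54 ± 0.68 (edgeR adjusted p = 7.1e-06). Il21 was at 0, 0 and 1.83 CPM against 30.8, 25.4 and 31.8, with -5.68 ± 1.06 (edgeR adjusted p = 0.0021). Tox2 had no read pair in the 3 thymic libraries and 186, 206 and 269 CPM in active cells, at least 6449-fold lower against a floor of 3 read pairs over the group.

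Tox, which is known for its role in CD4 T cell development in the thymus, was at 363, 371 and 338 CPM in thymic and 185, 160 and 170 CPM in active cells, higher in the thymus by 0.96 ± 0.10 (edgeR adjusted p = 1.8e-05). Pou2af1 (-2.71 ± 0.55), Slamf6 (-0.97 ± 0.12), Sh2d1a (-0.89 ± 0.22) and Il6ra (-0.78 ± 0.19) were lower in the thymus. Bcl6, at 21.8, 42.1 and 30.9 against 26.0, 9.999 and 24.7 CPM, was not called (0.55 ± 0.34, edgeR adjusted p = 0.28). Ascl2 had no read pair in any thymic library and averaged 0.726 CPM in active cells, at least 21.1-fold higher by the same floor, with values of 2.41, 0 and 0.0309 CPM and no call. It was called without active ROSA26-WT replicate 2.

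Loss of Foxp3 protein gave no call among the 10 genes in thymic or in active cells, and none among all genes tested (0% in both), with 1050 and 672 genes at an unadjusted p under 0.05 and 156 and 21 genes called by DESeq2. In the thymus 8 of the 10 genes had enough counts, of which Tox and Slamf6 had an unadjusted p under 0.05. Tox was at 363, 371 and 338 CPM in WT and 398, 399 and 428 CPM in TIR1 libraries (0.19 ± 0.07), and Slamf6 at 308, 340 and 290 against 329, 384 and 401 CPM (0.24 ± 0.10). Cxcr5 was at 0, 0.636 and 0.310 CPM in WT and 2.48, 1.97 and 2.08 CPM in TIR1 libraries, all 3 above, with 2.76 ± 1.40 (edgeR adjusted p = 0.71). Tox2 had read pairs only in TIR1 replicate 2, 89 of them. DESeq2 called none of the 10 in the thymus.

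In active cells, under the header names, Il21 was at 30.8, 25.4 and 31.8 CPM in WT and 89.5, 57.4 and 88.7 CPM in TIR1 libraries, so that all 3 TIR1 libraries lay above. The log2 difference was 1.39 ± 0.23, or 2.62-fold, and was not called by edgeR (adjusted p = 0.74), whereas DESeq2 called it. Of the 10 genes it was the 1 with an unadjusted p under 0.05 and the 1 that DESeq2 called. Slamf6, at 661, 545 and 521 against 677, 767 and 739 CPM (0.30 ± 0.14), also had its libraries apart. Cxcr5, at 38.6, 80.9 and 49.7 against 60.7, 38.7 and 48.2 CPM (-0.23 ± 0.30), and Bcl6, at 26.0, 9.999 and 24.7 against 24.0, 34.1 and 33.4 CPM (0.56 ± 0.37), overlapped. With the attachment recorded for the files the Il21 difference is -1.39.

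The degron effect of thymic cells was not shown to differ from that of active cells for any of the 10 genes, and 0% of all 14769 genes were called. At an unadjusted p under 0.05 there were 984 of all genes, and DESeq2 called 71 genes, of the 10 Cxcr5. The widest differences, 7.69 ± 3.12 for Tox2 (edgeR adjusted p = 0.71), -4.63 ± 1.69 for Il21 (0.68) and 2.98 ± 0.79 for Cxcr5 (0.61), are those with an unadjusted p under 0.05 and rest on genes at or near 0 in the thymus. Without thymic TIR1 replicate 2 that of Tox2 was -0.05, and without thymic WT replicate 3 that of Il21 was 2.56.

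**Figure D5:**
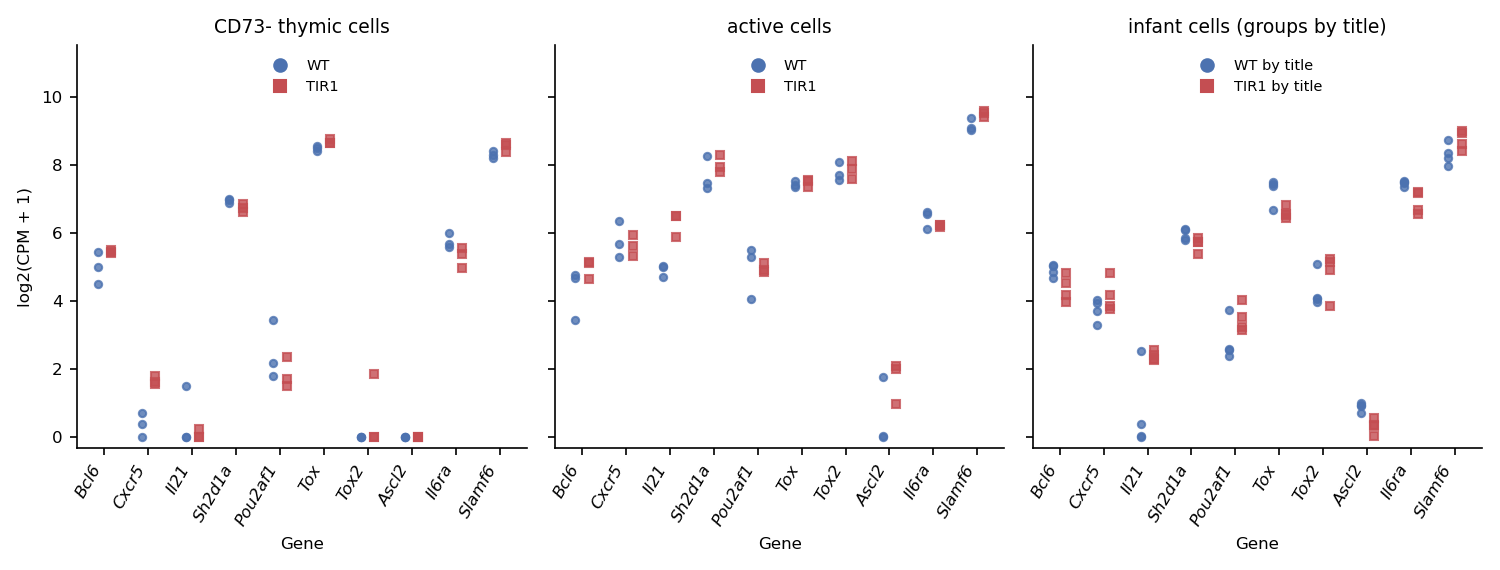
Level of each of the 10 genes in each degron library, as log2(CPM + 1), for thymic, active and infant cells with the 2 genotype groups side by side. In active cells Il21 lies at 25.4 to 31.8 CPM in WT and 57.4 to 89.5 CPM in TIR1 libraries, and infant titled WT replicate 4 stands with the titled TIR1 libraries in Il21, at 4.77 CPM.

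In infant Treg cells no gene of the 10 was called between titled TIR1 and titled WT libraries, and 0.0185% of all genes were called. Titled WT replicate 4 stood apart from the other titled WT libraries. Il21 was at 3.98, 4.38, 3.87 and 4.94 CPM in titled TIR1 and 0.310, 0.0396, 0 and 4.77 CPM in titled WT libraries. Tox was at 92.9, 90.8, 85.7 and 112 CPM against 173, 166, 178 and 101 CPM, so that replicate 4 lay within the titled TIR1 range in both genes. Pou2af1, at 7.86, 15.3, 8.41 and 10.505 against 4.88, 5.04, 4.28 and 12.3 CPM, and Slamf6, at 486, 507, 388 and 338 against 321, 250, 291 and 421 CPM, showed the same. The 6 markers of activated Treg cells summed to 745, 741, 543 and 647 CPM in titled TIR1 and 252, 221, 195 and 586 CPM in titled WT libraries, and their part in these differences was not tested.

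With all 8 infant libraries the log2 differences were -0.68 ± 0.17 for Tox (edgeR adjusted p = 0.10), -0.52 ± 0.15 for Il6ra (0.13), -1.64 ± 0.55 for Ascl2 (0.16), -0.51 ± 0.18 for Bcl6 (0.19), 0.44 ± 0.17 for Slamf6 (0.21) and -0.27 ± 0.11 for Sh2d1a (0.25), each with an unadjusted p under 0.05. At that level were 2827 of all 16209 genes tested. DESeq2 called 1108 genes, of the 10 Tox and Il6ra. Il6ra was at 100, 92.6, 147 and 143 CPM against 184, 179, 175 and 163 CPM, without overlap. Without titled WT replicate 4, 11% of 16136 genes were called, and of the 10 genes Il21 (5.18), Pou2af1 (1.17) and Slamf6 (0.60) were higher and Tox (-0.83) and Il6ra (-0.55) lower in titled TIR1 libraries (edgeR adjusted p = 0.00041, 0.0069, 0.012, 0.00020 and 0.038). That library was singled out by its values in Il21, Pou2af1, Tox and Tox2. These adjusted p-values therefore follow in part from the choice and are no separate support for a difference. Cxcr5, at 16.9, 27.3, 13.3 and 12.7 against 15.5, 12.2, 8.85 and 14.5 CPM, and Tox2, at 29.3, 34.4, 13.5 and 36.6 against 15.9, 15.8, 14.8 and 32.8 CPM, were not called either way.

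Other genes of the pathway were read in 6 lists, beside the background of 6.22% of all genes called in active and 4.73% in resting cells over days 3 to 28. Among 12 surface and helper genes of follicular helper cells, in active cells over days 3 to 28, 4 rose and 3 fell with Foxp3. Il21r, the IL-21 receptor, rose by 1.19 ± 0.12, the folate receptor family member Izumo1r by 0.68 ± 0.13 and the costimulator Icos by 0.59 ± 0.10. The helper cytokine Il4 fell by 2.46 ± 0.23, from a mean of 33.4 to 6.05 CPM, and the TNF family ligands Tnfsf8 and Cd40lg fell by 0.87 ± 0.12 and 0.71 ± 0.12. In resting cells 2 rose, the inhibitory receptor Tigit (3.22 ± 0.40) and Izumo1r (0.62 ± 0.09), and 3 fell, again Il4 (-2.19 ± 0.33), Tnfsf8 (-0.87 ± 0.12) and Cd40lg (-0.78 ± 0.12). The list's median was 0.27 in active and 0.18 in resting cells.

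Of 12 transcription factors linked to the BCL6 programme, not all of which promote it, 2 rose and 4 fell in active cells. Id3, an inhibitor of E proteins, rose by 1.37 ± 0.19 and Lef1 by 0.68 ± 0.11, whereas Tcf7, which encodes TCF-1, fell by 0.99 ± 0.11, Bach2 by 0.57 ± 0.15 and Egr2 by 0.56 ± 0.16. In resting cells none rose and 2 fell, Tcf7 (-0.82 ± 0.08) and Lef1 (-0.30 ± 0.08). The medians were -0.06 and -0.08. Lef1 differed between states in its Foxp3 effect, by 0.96 ± 0.13 (edgeR adjusted p = 0.00014), and so did Id3, by 1.08 ± 0.24 (edgeR adjusted p = 0.017).

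Of 14 genes that oppose BCL6 or hold cells outside the follicle, 3 rose and 1 fell in active cells, and 4 rose and 4 fell in resting cells. In active cells Tbx21, encoding T-bet, rose by 1.00 ± 0.29, the IL-2 receptor chain Il2ra by 0.79 ± 0.10 and Foxo1 by 0.32 ± 0.06, and Id2 fell by 0.75 ± 0.18. By day Tbx21 was called on day 28 alone, at a mean of 44.1 against 7.501 CPM (2.58 ± 0.59, edgeR adjusted p = 0.031). On that day all 5 CD8 T and NK markers tested had an unadjusted p under 0.05, with 1 called higher, and their sum reached 197 CPM in plusFoxp3 replicate 1. Their part in the Tbx21 result was not tested. In resting cells Prdm1, encoding Blimp-1, a repressor of Bcl6, rose by 1.23 ± 0.20, Il2rb by 1.21 ± 0.10 and Tbx21 by 1.19 ± 0.28, while Id2 (-1.36 ± 0.11), Gpr183 (-0.57 ± 0.12) and the lymph node homing receptor Ccr7 (-0.43 ± 0.07) fell. The rise of Prdm1 and Il2rb differed between states, by -0.96 ± 0.24 and -1.14 ± 0.14 (edgeR adjusted p = 0.031 and 1.6e-05). The medians were 0.11 and 0.12.

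In IL-6 and IL-21 signalling, 2 of 8 genes rose in active cells, Il6st, which encodes the gp130 chain shared by IL-6 family receptors (1.03 ± 0.17), and the common γ chain Il2rg (0.27 ± 0.07), and none was called in resting cells. Of 7 genes of SLAM receptors and their kinase Fyn, 1 was called in each state, Slamf7, at 1.14 ± 0.30 in active and 1.38 ± 0.26 in resting cells. Of 7 tested relatives and partners of the 10 genes, Zbtb7b (0.46 ± 0.08) and the octamer factor Pou2f2 (0.34 ± 0.08), to which OCA-B can bind, rose in active cells and none was called in resting cells. No gene of the 6 lists was called in the 3 degron comparisons. An unadjusted p under 0.05 was found there for at most 4 genes of a list in thymic, 4 in active and 6 in infant cells. Over all genes it was found for 1050 of 14245, 672 of 14554 and 2827 of 16209.

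Similarity of pattern was described over the 22 groups of the reversible allele and Foxp3GFP Treg cells, with Pearson's r of mean log2 CPM among 10501 genes. The 3 genes nearest to Cxcr5 were Ighm (r = 0.966), Pglyrp1 (0.960) and Izumo1r (0.951). Those nearest to Il21 were Tbc1d4 (0.978), Plekho1 and Dlg2, those nearest to Tox2 were led by Stx11 (0.984) and those nearest to Il6ra by Ndrg2 (0.975). For Bcl6 the nearest was Rapgef1 (0.919), for Sh2d1a Pdcd1lg2 (0.940). Cxcr5 and Il21 had r = -0.77 with each other. Each point is a mean of 2 libraries, the points share sorting gates and counting, and no test goes with these values.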

How the data were processed

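Counts deposited by the authors were read pairs per gene from featureCounts 2.0.3 over GENCODE vM30 genes on mm39, per the file headers, without a strand setting. The 20 degron libraries were counted with a minimum mapping quality of 30 and the other 44 without, so levels were not tested between the 2 sets. The study's methods name STAR for alignment, and the processing notes list Bowtie2, featureCounts and DESeq2.

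Levels (CPM) are counts scaled to 1000000 per library. Tests used edgeR 4.0.16 in R 4.3.3 (quasi-likelihood, robust, TMM) on genes with a mean of at least 10 read pairs, with Benjamini-Hochberg adjustment over all genes tested and a threshold of 0.05. Degron comparisons within a tissue were fitted on their own libraries, comparisons of the 2 adult tissues on 12, comparisons of days on the 22 libraries of a state and comparisons of states on all 44. Standard errors are the log2 fold change divided by the square root of F. The script was tested on simulated counts.

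The 10 genes, the marker lists and the 6 pathway lists were chosen with earlier results of these data known. From each list, up to 3 called genes per direction with the largest fold change are named. The study describes adult thymic and other bulk replicates as biological, but no label ties a library to a mouse, so where replicates were not from separate mice the p-values measure technical spread. Counts of replicates differed beyond sampling noise in all 46 pairs examined. Counting error alone is small at this depth except under about 1 CPM. Alternatives were RLE size factors, DESeq2 1.42.0, no count filter, only the libraries compared, a replicate block, leaving out each library and the recorded attachment of the adult degron files.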

Additional observations from a re-analysis of the deposited data

Results flagged for a closer look

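In infant Treg cells, titled WT replicate 4 lay far from the other 3 titled WT libraries in 4 of the 10 genes: it was the highest in Il21 at 4.77 CPM, in Pou2af1 at 12.3 CPM and in Tox2 at 32.8 CPM, and the lowest in Tox at 101 CPM. Its gap to the nearest library exceeded 0.829 of the group's range, Dixon's 95% limit for 4 samples. Of 20 sets of 4 values examined 4 passed this limit, and chance passes about 1 in 20. All 4 come from the same library. The Foxp3 effect differed between active and resting cells, by the test of the difference itself, for Cxcr5 (1.30 on the log2 scale) and Slamf6 (0.87).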

How the results depend on the processing

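The text rests on 50 called values of the 10 genes. All 50 stayed called with RLE size factors, without the count filter and with the replicate block, as did 49 of 49 in DESeq2 and 490 of 540 refits without 1 library, of which 49 were not called and 1 reversed. Fitted only on the libraries compared, 32 of 42 stayed called.

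Without the count filter, the number of called genes was 1 on resting days 3 and 7, 3 on resting days 14 and 28, 6 in the resting mean, 2 for resting Foxp3GFP against day 28, 3, 4 and 5 on active days 3, 7 and 14, 7 in the active mean, 1 for active Foxp3GFP against day 28 and 9 for Foxp3GFP cells between states. Over all genes it then was 664, 493, 665 and 884 on resting days 3, 7, 14 and 28 and 1907 in the resting mean. For resting Foxp3GFP against day 28 it was 328, on active days 3, 7 and 14 it was 575, 996 and 847. In the active mean it was 2242, for active Foxp3GFP against day 28 1217 and between states in Foxp3GFP cells 1411. DESeq2 called 1 gene in the active degron comparison, 2 in the infant, 1 in the difference of degron effects, 1 on resting day 7, 2 on resting day 28, 1 and 3 for resting and active Foxp3GFP against day 28, 2 on active day 3 and 9 for Foxp3GFP cells between states. Over all genes DESeq2 called 21, 1108 and 71 in these degron comparisons and 147 and 463 on resting days 7 and 28. It called 58 and 819 for resting and active Foxp3GFP against day 28, 264 on active day 3 and 1172 for Foxp3GFP cells between states. On only the libraries compared there were 0 calls on resting day 14, 1 for resting Foxp3GFP against wannabe cells, 0 on active day 7 and 2 for Foxp3GFP cells between states. Over all genes these comparisons then had 8, 289, 4 and 508 calls. Calls among all genes were thus more than in the main fit without the filter and in DESeq2, and fewer on only the libraries compared. The causes were not tested.

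Leaving out 1 library at a time gave 0 to 5 called genes in the infant comparison, 8 to 9 between thymic and active WT libraries, 0 to 1 on resting days 0 and 14, 1 to 3 in the resting mean, 1 to 2 for resting and 4 to 5 for active Foxp3GFP against wannabe cells, 1 to 4, 0 to 1 and 1 to 3 on active days 7, 14 and 28, 4 to 5 in the active mean, 0 to 1 for active Foxp3GFP against day 28, and 6 to 8, 6 to 7 and 1 to 5 between states in minusFoxp3, plusFoxp3 and Foxp3GFP cells. Values turned around for Pou2af1 between states in Foxp3GFP cells (-0.057 to 3.76, the lowest without active replicate 1) and for Il21 (-8.57 to 2.56, the highest without thymic WT replicate 3) and Tox2 (-0.049 to 8.27, the lowest without thymic TIR1 replicate 2) in the difference of degron effects.

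With the recorded attachment of files, Tox and Slamf6 in the thymus were -0.19 and -0.24, Il21 in active cells -1.39, and the differences of degron effects -2.98 for Cxcr5, 4.63 for Il21 and -7.69 for Tox2.

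The replicate numbers were not taken to pair the samples, since no label ties a number to a mouse, litter or day and not every pair of groups correlated. Deviations of same-numbered libraries correlated at -0.264 to -0.005 in the adult degron, -0.129 to 0.175 in the infant and -0.084 to 0.296 in the reversible allele groups, where 5 of 10 pairs of groups were over 0.1. With the replicate block 24 of 25 counts of called genes stayed within 1.5 times the main count, and on resting day 28 there was 1 (Sh2d1a).

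Groups of 2 libraries, and levels near 0 for Ascl2 in all cells and for Il21, Cxcr5 and Tox2 in the thymus, limit what the tests can show.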
